A study of Mus musculus with 336 samples.

Results

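Cytochrome P450 genes of families 1 to 4 were measured by RNA sequencing in cultured liver and skin fibroblasts of wild-type mice (WT) and of mice without a working Bmal1 gene (Bmal1-/-, here KO), which encodes a core factor of the circadian clock. Members were all genes whose symbol is Cyp, a family number from 1 to 4, a subfamily letter and a closing number, whose mean reached 1 FPKM in 1 or both of 2 liver tables. FPKM, is a level per transcript length and sequencing depth. Of 75 symbols of this form among 47637 genes listed in the liver tables, 46 were members. In the slices 40 reached the limit, in the short liver course 43, and in both 37, while 10 reached 1 FPKM in fibroblasts. The members nearest above the limit were Cyp2d11 (1.08 FPKM) and Cyp2a22 (1.13 FPKM), and the symbols nearest below it were Cyp4a31 (0.975 FPKM) and Cyp2g1 (0.937 FPKM). Symbols that end in a letter, such as Cyp4a12a, lie outside the rule.

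The liver slices were pieces of about 500 microns from adult C57BL/6 mice, kept on membrane discs in HEPES-buffered medium with serum in constant darkness, and sampled every 3 h from CT00 to CT69, starting 48 h after the pulse described next. Every group in every course, controls included, had received 100 nM dexamethasone, a glucocorticoid used to synchronize clocks, for 15 min. The slice table held 1 library at each of 24 time points per genotype. The short liver course held 3 libraries, numbered 1 to 3, at each of T00, T06, T12 and T24 (hours) per genotype, 24 in all, also from C57BL/6 mice. The time from the pulse to T00 is not stated, nor which libraries came from separate mice, so that p-values measure the spread between these libraries only. Mouse skin fibroblasts of both genotypes on the same background, cultured to confluence, gave 24 libraries per genotype on the CT00 to CT69 schedule. The 3 tables were normalized separately, and no level was tested across them.

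P450 enzymes are heme-containing monooxygenases of the endoplasmic reticulum that take electrons from the reductase Por. Families 1 to 3 oxidize drugs, pollutants and steroids, and family 4 mainly fatty acids. In liver, family 1 genes are induced through the aryl hydrocarbon receptor (Ahr), Cyp2b10 and several Cyp2c genes through the receptor CAR (Nr1i3), Cyp3a11 through PXR (Nr1i2) and Cyp4a genes through PPARα. Hepatocytes are known to lose P450 transcripts in culture, and the clock-controlled factors Dbp, Tef and Hlf are known to act upstream of several P450 genes.

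The members fell into 16 subfamilies, of which Cyp2c held 11, Cyp2d and Cyp4f 6 each and Cyp3a 4. Most lay in clusters of related genes. On GRCm38, the 11 Cyp2c genes span 5.02 Mb of chromosome 19 (39007019 to 44029208), the 6 Cyp2d genes 0.424 Mb of chromosome 15 (82370527 to 82794294) and the 4 Cyp3a genes 8.22 Mb of chromosome 5 (137892932 to 146113287). Members of a cluster are close copies, and the reads were single and 50 bases long. All 50-base words of the annotated transcripts were unique to the gene in 7 members, and over 10% were shared with another gene in 18. The shared part was 60.3% for Cyp2c40, 52.8% for Cyp2c67, 43.3% for Cyp2c68 and 37.0% for Cyp2a5, so the levels of these genes are uncertain. It was 30.1% for Cyp2c37, 25.7% for Cyp2c54 and 18.3% for Cyp2c50, whose levels are uncertain too. For Cyp2c55 it was 0.51%, for Cyp2c29 4.25% and for Cyp2b10 8.7%.

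The levels of most members were higher in the short-course table than in the slice table, which were scaled separately. In the short course the most abundant was Cyp2e1, which oxidizes ethanol and acetaminophen, with a mean of 1835 ± 777 FPKM in WT and 1593 ± 1069 FPKM in KO (SD, n = 12 each). Cyp3a11, the main mouse member of the subfamily that oxidizes many drugs, followed with 661 ± 360 FPKM in WT and 1067 ± 733 FPKM in KO. In the slices Cyp3a11 was at 137 ± 186 FPKM in WT and 113 ± 108 FPKM in KO (SD, n = 24 each), and Cyp2c29 at 123 ± 177 and 87.2 ± 79.4 FPKM. Cyp2e1 was at 34.7 ± 31.7 and 118 ± 111 FPKM, Cyp4b1 at 62.8 ± 26.4 and 49.1 ± 27.5 FPKM, and Cyp2f2 at 19.5 ± 15.9 and 82.1 ± 103 FPKM. The leading members of the other subfamilies in slices were Cyp4f13 (31.3 ± 6.61 FPKM in WT and 26.3 ± 8.73 FPKM in KO), Cyp2d10 (31.0 ± 21.9 and 35.5 ± 30.4 FPKM) and the fatty acid hydroxylase Cyp4v3 (15.4 ± 6.07 and 12.6 ± 9.35 FPKM). Cyp2j6, an epoxygenase, was at 10.2 ± 3.36 and 7.56 ± 2.29 FPKM, and Cyp2r1, Cyp2u1 and Cyp4a14 were below 3 FPKM on average in both genotypes. The Cyp2c means summed to 1083 FPKM in WT and 2437 FPKM in KO of the short course, and to 158 and 197 FPKM in the slices. Cyp1a1 stood the other way, at most 1.89 FPKM in any short-course library but 33.4 ± 21.1 FPKM in WT slices and 20.4 ± 16.7 FPKM in KO slices.

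**Figure D1:**
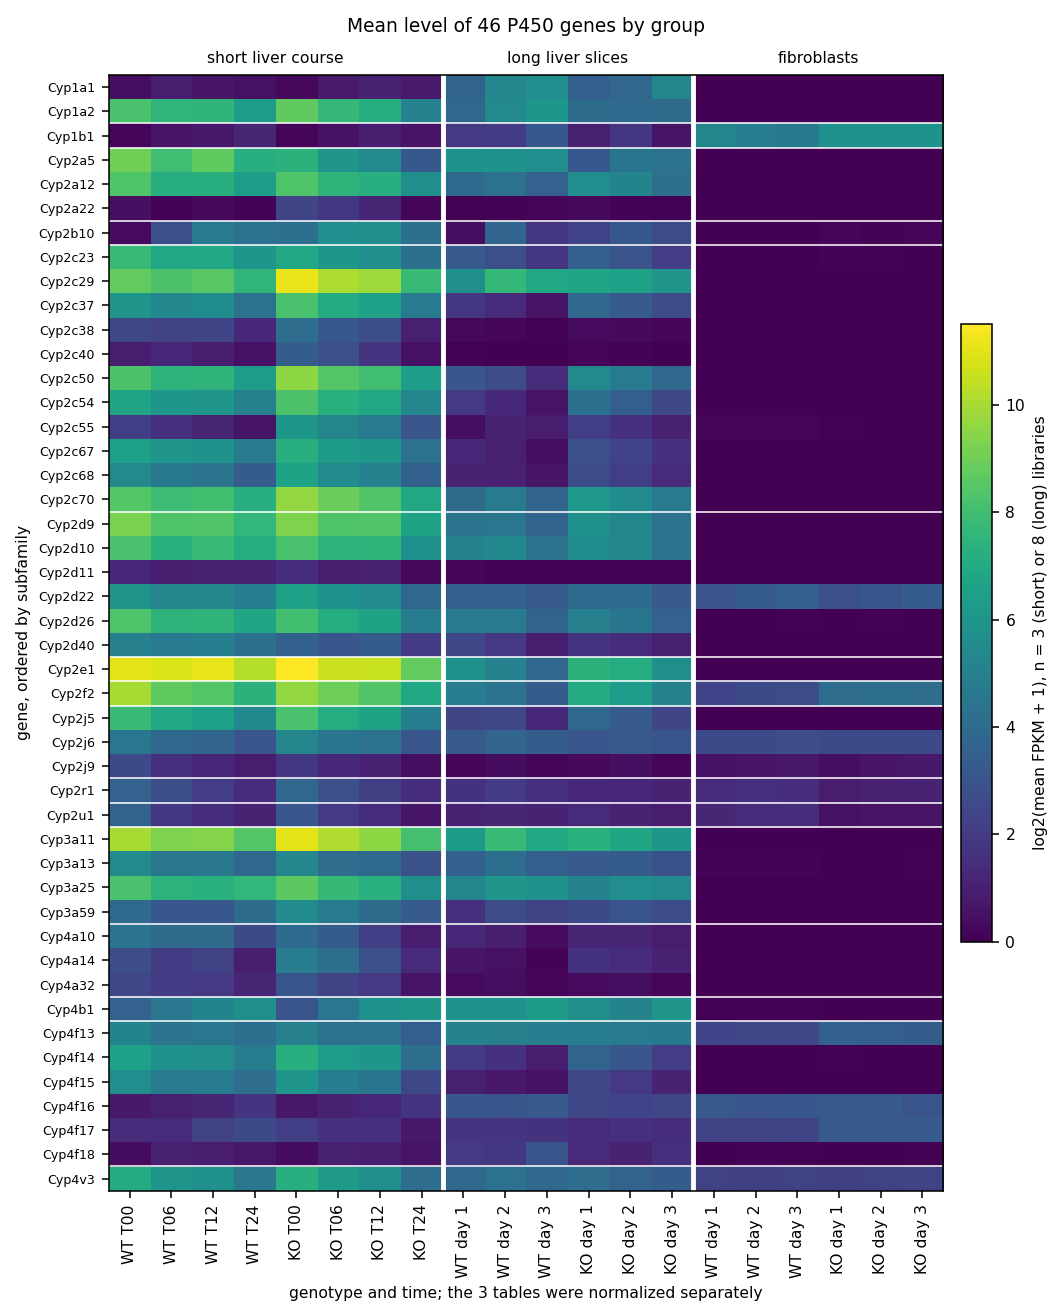
Mean level of each of the 46 members, as log2(mean FPKM + 1), by genotype and time in the short liver course (n = 3 libraries a column), the long liver slices and the fibroblasts (n = 8 a column). Most rows are brightest at T00 of the short course, Cyp1a1 is bright only in the slices, and Cyp1b1 is the brightest row in fibroblasts.

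Some facts bear on all results. The FPKM of all genes summed to between 479770 and 1013680 per short-course library, 766546 and 2121560 per slice library and 793416 and 835682 per fibroblast library, and read depth is unknown. An exact 0 can be a failed estimate: albumin (Alb), the most abundant hepatocyte transcript as a rule, is listed at 0 in 5 WT and 1 KO short-course libraries. The gene-level FPKM of Bmal1 (Arntl) was 4.50 ± 1.05 in WT and 4.09 ± 0.73 in KO slices (SD, n = 24), 1.45 ± 0.98 and 2.31 ± 0.51 in the short course (SD, n = 12), and 8.79 to 11.9 in WT and 5.67 to 7.84 in KO fibroblasts, so WT and KO below stand for libraries labelled so. The deleted part of the gene is not given, and this level therefore does not check the labels. The libraries that stood apart in P450 levels were WT CT36, KO CT09, and KO replicate 2 at T12 and at T24. Some counts of calls and some single-gene results are also given without them. The estimates at each time, the overlaps between groups and the summed levels use all libraries. KO replicate 2 at T24 had the lowest total FPKM of the short course (479770). WT CT36 held the highest WT slice values of Cyp3a11 (951 FPKM), Cyp2c29 (850.0 FPKM) and Cyp2b10 (94.9 FPKM). In all of these bulk samples, fewer cells of a type and less RNA per cell cannot be told apart.

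In the short course, KO liver started with more of several inducible P450s than WT liver. Over the 4 times, 14 of 43 members tested passed limma's test on log2(FPKM + 1) at an adjusted p below 0.05, 8 higher and 6 lower in KO, beside 15.7% of all 12547 genes (6.29% higher and 9.42% lower). The median difference was 0.02 over the members and −0.01 over all genes, with 22 members above 0 and 21 below. Of the 8 higher members 6 were Cyp2c genes (Cyp2c55, Cyp2c37, Cyp2c29, Cyp2c40, Cyp2c54 and Cyp2c68), and the others were Cyp2b10 and Cyp2a22. The 6 lower members were Cyp2a5, Cyp2d40, Cyp2c23 (−1.23), Cyp2d26 (−0.88), Cyp3a13 (−0.60) and Cyp2j9 (−0.39). A gene high in 1 genotype only, such as Cyp2c40, passes the filter on the mean through that genotype, so these counts describe the members and are no test of them.

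Cyp2c55, an arachidonic acid hydroxylase induced through CAR and PXR, differed most. At T00 it stood at 1.46, 4.74 and 3.90 FPKM in WT replicates 1 to 3 and at 52.3, 70.8 and 78.0 FPKM in KO. At T24 the WT values were 0.272, 0.735 and 0.684 FPKM and the KO values 13.2, 2.37 and 5.87 FPKM. The groups did not overlap at either time, and KO was higher by 3.33 ± 0.29 (SE) on the log2 scale over the course (limma, adjusted p = 6.17e-08). Cyp2b10, the classical CAR target, was 0.112, 0.381 and 0.348 FPKM in WT at T00 and 6.99, 23.5 and 21.3 FPKM in KO, with no overlap. By T24 the groups overlapped, with 13.4, 13.2 and 28.6 FPKM in WT and 24.9, 8.48 and 20.1 FPKM in KO. The difference was 3.68 ± 0.80 at T00 (limma, adjusted p = 0.00918) and 1.98 ± 0.49 over the course (adjusted p = 0.00749).

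Cyp2c29 and Cyp2c37 were likewise higher in KO at T00, whereas Cyp2c23 was lower there, with 163, 268 and 239 FPKM in WT and 112, 122 and 106 FPKM in KO and no overlap. Cyp2c29 was 223, 553 and 506 FPKM in WT and 1972, 2609 and 2279 FPKM in KO, with no overlap. At T24 it was 144, 238 and 171 FPKM in WT against 356, 70.4 and 230 FPKM in KO, which overlapped. Its difference was 2.52 ± 0.64 at T00 and 1.39 ± 0.36 over the course (limma, adjusted p = 0.011). Cyp2c37 at T00 was 35.9, 70.2 and 76.5 FPKM in WT and 340, 297 and 254 FPKM in KO (2.33, and 1.40 over the course). Cyp3a11 at T00 was 697, 1139 and 1224 FPKM in WT and 1938, 2365 and 1982 FPKM in KO, again without overlap, but it was not called at the gene level over the course (0.42 ± 0.29, adjusted p = 0.356).

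The promoters of Cyp2c55 and Cyp2c29 are shown because both genes are known to respond to CAR and both were higher in KO. They are the 250 bases before the start in RefSeq (GRCm38.p6), both on the plus strand, at chr19:39006769-39007018 and chr19:39286835-39287084, and capitals mark AGGTCA, the half-site of nuclear receptors, on either strand.
Cyp2c55: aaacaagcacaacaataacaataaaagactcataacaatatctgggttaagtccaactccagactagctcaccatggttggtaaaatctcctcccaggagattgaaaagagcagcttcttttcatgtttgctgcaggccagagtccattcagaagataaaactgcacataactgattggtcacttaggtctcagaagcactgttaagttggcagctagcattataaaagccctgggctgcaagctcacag
Cyp2c29: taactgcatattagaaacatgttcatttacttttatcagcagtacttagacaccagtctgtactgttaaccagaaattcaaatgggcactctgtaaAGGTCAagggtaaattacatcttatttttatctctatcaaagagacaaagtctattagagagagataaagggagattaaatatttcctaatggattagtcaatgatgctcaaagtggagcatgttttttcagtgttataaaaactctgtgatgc
Cyp2c29 holds 1 match, which starts 154 bases before the start, and Cyp2c55 none. AGGTCA stood in 4607 of 32851 promoter windows of this length and in 7 of the 39 members with a window, Cyp2c29, Cyp2c70, Cyp2f2, Cyp2j5, Cyp3a11, Cyp3a25 and Cyp3a59. A match is a description of letters, not a site.

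The members called by genotype were not the same at each time. A test of whether the genotype difference itself changed over time called 1 of 43 members, beside 1.75% of all genes. In an estimate at each time, chosen after the data were seen, 7 members were higher and 1 lower in KO at T00, beside 2.58% and 1.86% of all genes. Beyond those above they were Cyp2c40 (2.53), Cyp2a22 (1.73) and Cyp3a59 (1.65), with Cyp2j9 lower (−0.69). Only Cyp2c55 was called at T06 (3.77, beside 0.98% of genes higher). At T12 Cyp2c55 was higher (3.37, beside 1.01%) and Cyp2a5 lower (−3.18, beside 1.39%). At T24 Cyp2c55 alone was higher (2.16, beside 7.5%) and 12 members were lower, beside 10.4% of genes, among them Cyp2a5 (−4.23), Cyp2d40 (−2.32), Cyp2e1 (−2.08), Cyp3a25 (−2.04) and Cyp2c23 (−2.02). KO values lay above every WT value for 22 of 43 members at T00 and for 2 at T24, and below every WT value for 6 at T00 and 17 at T24. Over all 12547 genes, KO lay above every WT value for 18.9% at T00 and 15.8% at T24, and below for 16.8% and 20.3%.

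Cyp2a5, which oxidizes coumarin and nicotine, was the member with the largest deficit in KO. It was 231, 575 and 728 FPKM in WT and 198, 166 and 140 FPKM in KO at T00. At T24 it was 96.9, 225 and 132 FPKM in WT and 15.6, 3.76 and 4.62 FPKM in KO, and the groups did not overlap at either time. The difference was −2.70 ± 0.40 over the course (limma, adjusted p = 6.69e-05). Cyp2d40 ranged from 15.3 to 39.2 FPKM over the 12 WT libraries and from 1.21 to 15.0 FPKM over the 12 KO libraries, so that every KO library lay below every WT library across all times. It was lower by −1.80 ± 0.23 (limma, adjusted p = 9.94e-06).

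Several of these calls depend on which libraries are included. Without KO replicate 3 at every time the 14 calls became 8, 2 higher and 6 lower, beside 10.6% of all genes. Cyp2b10 (1.76), Cyp2c29 (1.19) and Cyp2c40 (0.93) were among those lost. A comparison of each replicate's mean over time, 3 against 3, left 3 calls, beside 4.46% of all genes. Cyp2b10, Cyp2c29, Cyp2c37, Cyp2c40, Cyp2c23, Cyp2d26 and Cyp3a13 were among those lost there. Without the KO library of replicate 2 at T12 or at T24 there were 17 and 18 calls, beside 17.2% and 15.3% of all genes. Markers of hepatocytes around the central vein, where many P450s are known to be most abundant, moved with the T00 difference: the summed FPKM of 6 genes was 219 to 330 in WT and 1212 to 1443 in KO at T00, and 256 to 337 in WT and 90.2 to 226 in KO at T24. Of the 5 tested over the course, 2 were higher in KO (Oat and Rhbg), beside 6.29% of all genes, and the pericentral marker Glul was not called (−0.23). Their part in the P450 differences was not tested.

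**Figure D2:**
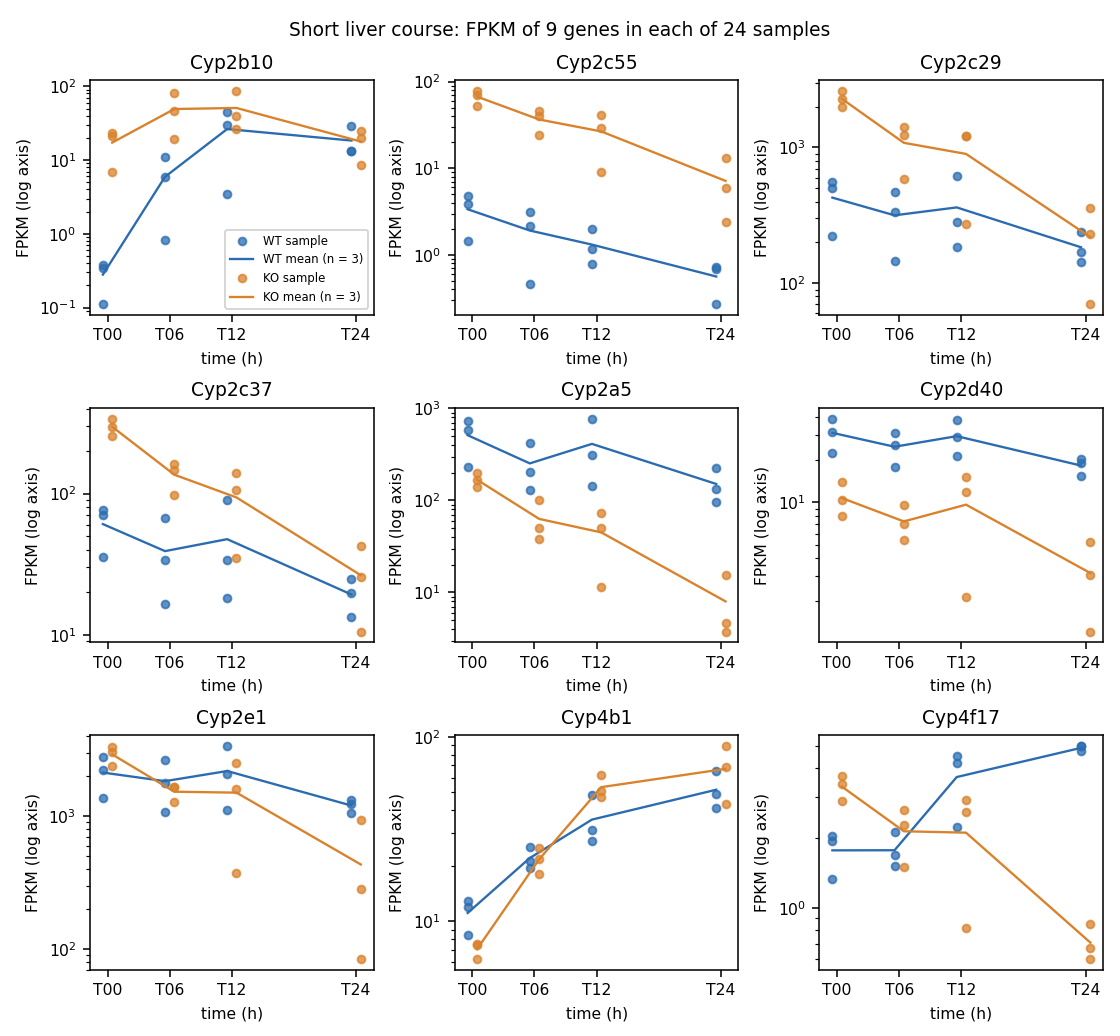
FPKM (log axis) of 9 members in each of the 24 short-course samples against time in hours, with WT and KO points set side by side and lines through the means of 3. At T00 the KO points of Cyp2b10, Cyp2c55, Cyp2c29 and Cyp2c37 lie above all WT points, those of Cyp2a5 and Cyp2d40 lie below, and Cyp4f17 rises in WT while it falls in KO.

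By the end of the 24 h of the short course most P450 transcripts had fallen in both genotypes. The summed FPKM of the 46 members went from 9207 ± 2107 at T00 to 3527 ± 330 at T24 in WT, and from 14209 ± 1072 to 1903 ± 1384 in KO (SD, n = 3 each). The KO sums at T24 were 3387, 649 and 1672 FPKM in replicates 1 to 3. In WT, 27 of 41 members tested changed over the course (limma F test, adjusted p below 0.05), beside 66.2% of all genes. In KO it was 39 of 43, beside 66.5%. At T06 against T00, 18 members fell and 1 rose in WT, beside 26.9% and 23.9% of all genes, whereas in KO 4 fell and 1 rose, beside 16.3% and 18%. At T12 against T00, 17 members fell and 3 rose in WT, beside 28.1% and 25.6% of all genes, and 24 fell and 2 rose in KO, beside 26% and 23%. At T24 against T00, 29 members fell and 4 rose in WT, beside 32.6% and 30.6% of all genes, with a median of −1.55 over the members and −0.01 over all genes. In KO 39 fell and 2 rose, beside 34.8% and 30.6%, with a median of −2.98 against −0.02. The time and genotype comparisons use the same libraries.

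The loss ran through most subfamilies. In KO all 11 Cyp2c members, all 6 Cyp2d, all 4 Cyp3a and all 3 Cyp2j and Cyp2a members fell. In WT 8 of 10 Cyp2c, 5 of 6 Cyp2d, 3 of 3 Cyp2j and 2 of 4 Cyp3a members fell. Cyp2f2, which activates inhaled toxicants such as naphthalene, had one of the steepest declines in WT, from 977, 1167 and 964 FPKM to 148, 154 and 194 FPKM (−2.65 ± 0.18). In KO it went from 966, 724 and 734 FPKM to 170, 52.9 and 121 FPKM (−2.95 ± 0.40). The T00 and T24 values did not overlap in either genotype. Cyp2u1, a fatty acid hydroxylase, fell from 10.6, 12.9 and 11.9 FPKM to 1.05, 1.11 and 1.39 FPKM in WT (−2.55 ± 0.14), and Cyp4v3 (−2.44), Cyp2j5 (−2.42) and Cyp2r1 (−2.17) were the next steepest.

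Cyp1a2, the hepatocyte caffeine demethylase, fell in both genotypes, from 200, 345 and 342 FPKM to 71.9, 93.7 and 68.9 FPKM in WT (−1.88 ± 0.37). In KO it went from 443, 390 and 410 FPKM to 54.6, 13.4 and 31.8 FPKM (−3.80 ± 0.58). Cyp2e1 fell in KO, from 3302, 3050.1 and 2388 FPKM to 931, 83.8 and 283 FPKM (−3.36 ± 0.83). Without the KO library of replicate 2 at T24 the fall was −2.49. The test over all times was then not passed (limma F test, adjusted p = 0.0697). In WT the values were 1379.7, 2231 and 2768 FPKM at T00 and 1048, 1321 and 1231 FPKM at T24, and the difference was not called (−0.77 ± 0.43, adjusted p = 0.138). The largest other falls in KO were those of Cyp2a5 (−4.46), Cyp2c29 (−3.65), Cyp2c37 (−3.63) and Cyp4f15 (−3.59). The number of changed members in KO dropped from 39 to 15 without KO replicate 3, while the share of all genes went from 66.5% to 28.6%.

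Few members went up. Cyp4b1, a fatty acid and arylamine oxidase of many tissues, rose in both genotypes. It went from 8.46, 12.01 and 12.8 FPKM to 48.9, 41.2 and 64.9 FPKM in WT and from 7.50, 7.44 and 6.24 FPKM to 89.0, 43.1 and 68.99 FPKM in KO. The changes were 2.12 ± 0.24 and 3.02 ± 0.24, with T24 above every T00 value in both. Cyp4f16 rose by 0.95 in WT and 1.00 in KO from levels below 1 FPKM. Cyp2b10 rose in WT (3.84 ± 0.85, limma, adjusted p = 0.0026), from the low T00 values given above through 0.832, 5.89 and 11.1 FPKM at T06 and 3.45, 45.5 and 30.1 FPKM at T12. In KO it started high and its T24 level was not called different from T00 (0.08 ± 0.64). The difference between these changes was −3.76 ± 1.13 and did not pass (limma interaction, adjusted p = 0.168).

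Cyp4f17, of a subfamily that hydroxylates fatty acids and leukotrienes, was the 1 of 43 members whose course differed between genotypes in the interaction test, beside 1.75% of all genes. In WT it went from 2.04, 1.33 and 1.94 FPKM at T00 to 4.74, 4.98 and 4.99 FPKM at T24. In KO it went from 3.71, 2.89 and 3.42 FPKM to 0.600, 0.853 and 0.670 FPKM. The genotypes did not overlap at either time and their order was opposite. The interaction at T24 was −2.44 ± 0.34, and the interaction over all times had an adjusted p of 0.0031 (limma F test). That call was lost without WT replicate 2 (−2.32 at T24) or KO replicate 3 (−2.41 at T24). At an unadjusted p below 0.05, 12 of 43 members (27.9%) and 18.3% of all genes passed, and without the KO library of replicate 2 at T12 6 members and 8.11% of all genes were called.

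**Figure D3:**
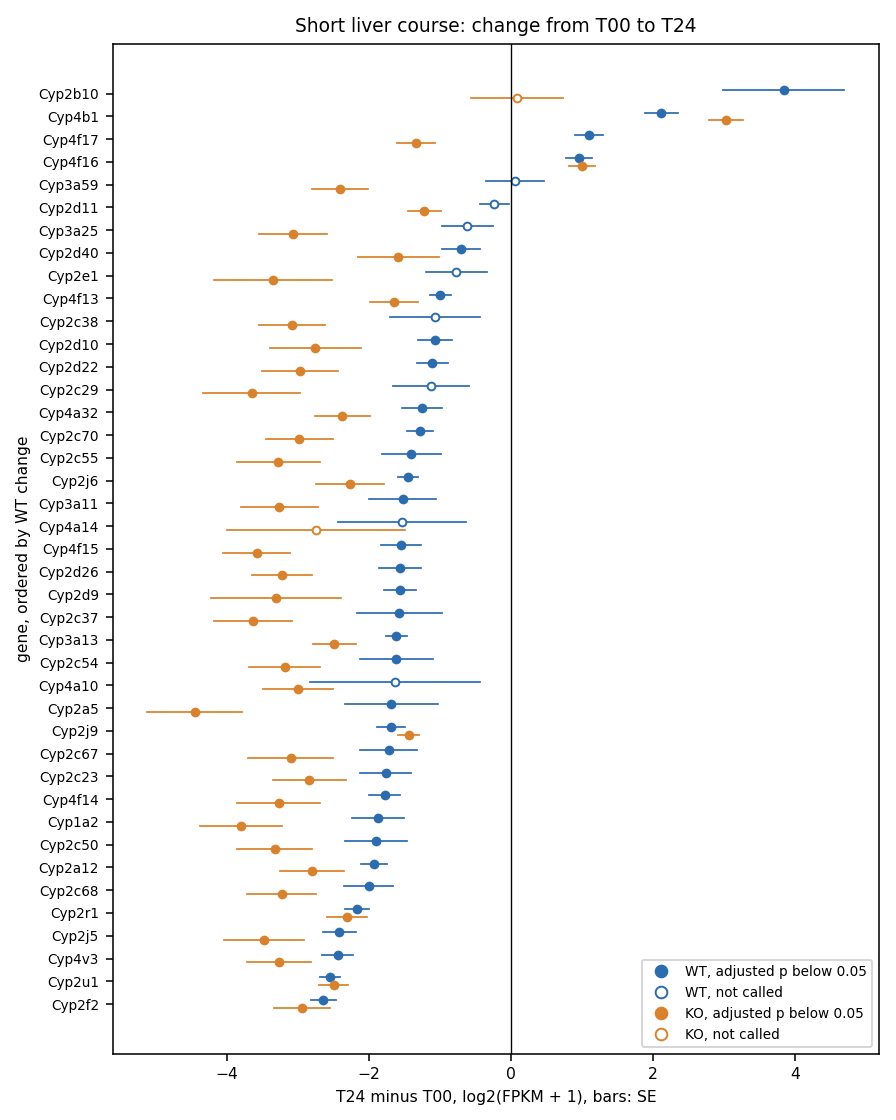
Change from T00 to T24 in the short course, in log2(FPKM + 1) with SE bars, for the members tested in both genotypes, ordered by the WT change. Filled points have an adjusted p below 0.05; most points lie left of 0 in both genotypes, and Cyp4b1 and Cyp4f16 lie to the right in both.

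Markers of the cell types in liver also changed over the short course. The summed FPKM of 7 hepatocyte genes was 39182 to 40343 in WT at T00 and 14707 to 18370 at T24, and 27290 to 36743 and 6972 to 17852 in KO. All 6 markers of hepatocytes around the portal vein were lower in both genotypes, and all 5 tested biliary markers were higher. Over all genes, 66.2% in WT and 66.5% in KO changed in either direction. Whether the P450 changes follow these shifts was not tested.

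In the long slices, KO was again higher for a set of Cyp2 genes, and it was lower for Cyp2a5 and for Cyp1b1 and Cyp1a2 of family 1. Of 40 members tested, 14 were called (limma, adjusted p below 0.05 with a size limit of 1 in log2 units), 11 higher and 3 lower in KO, beside 5.22% of 14566 genes (1.18% higher and 4.04% lower). The median difference was 0.18 over the members and −0.34 over all genes. When that general shift of 0.34 was removed by rescaling, the calls over all genes moved from 172 higher and 589 lower to 305 and 212, and those of the members from 11 and 3 to 15 and 2. The higher members were 6 Cyp2c genes (Cyp2c50, Cyp2c54, Cyp2c37, Cyp2c70, Cyp2c67 and Cyp2c68) and Cyp2f2, Cyp2e1, Cyp2b10, Cyp4f14 and Cyp2a12. The lower members were Cyp2a5, Cyp1b1 and Cyp1a2.

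Cyp2c50 ranged from 0.878 through a median of 3.39 to 18.1 FPKM in the 24 WT slices and from 2.73 through 17.8 to 157 FPKM in the 24 KO slices. The ranges overlapped, but KO was higher at 23 of 24 time points, by 2.09 ± 0.22 (limma, adjusted p = 2.06e-11). Cyp2e1 ranged from 3.39 through 23.4 to 132 FPKM in WT and from 13.1 through 86.4 to 556 FPKM in KO. It was also higher in KO at 23 of 24 time points, by 1.75 ± 0.23 (limma, adjusted p = 8.5e-09). Cyp2f2 ranged from 1.92 through 14.5 to 64.6 FPKM in WT and from 6.29 through 51.7 to 518 FPKM in KO (1.77 ± 0.24, limma, adjusted p = 1.16e-08). Cyp2c54 was higher in KO at all 24 time points (1.90), and Cyp2c37 at 23 (1.80). Cyp2b10 had medians of 0.495 FPKM in WT and 4.33 FPKM in KO and was higher in KO at 21 of 24 time points (1.33 ± 0.34), although its highest value, 94.9 FPKM, was that of WT CT36.

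Cyp2a5 was the member with the largest deficit here as well. It ranged from 5.66 through 31.3 to 301 FPKM in WT and from 1.97 through 10.8 to 56.0 FPKM in KO, and was lower in KO at 21 of 24 time points (−1.62 ± 0.36). Cyp1b1, a steroid and hydrocarbon oxidase mainly of non-hepatocyte cells, ranged from 0.599 through 3.90 to 15.7 FPKM in WT and from 0.0164 through 0.472 to 16.2 FPKM in KO (−1.43 ± 0.25). Cyp1a2 ranged from 5.43 through 28.2 to 156 FPKM in WT and from 2.45 through 10.8 to 62.6 FPKM in KO (−1.03 ± 0.35, limma, adjusted p = 0.00758). The call of Cyp1a2 was lost without WT CT36 (−0.93), without the third day (−0.50) and after rescaling (−0.66). That of Cyp1b1 was lost without the third day (−0.94). Cyp1a1 was also lower in KO (−0.80 ± 0.27, limma, adjusted p = 0.00711), but under the size limit. It was called without the first day (−1.11) and without the third day (−1.04). Members high in the short course with small differences here were Cyp3a11 (0.10 ± 0.34) and Cyp2c29 (0.13 ± 0.40), neither called. Without KO CT09, 12 members were called, 9 higher and 3 lower, beside 5.07% of all genes. Without WT CT36 it was 13, 11 higher and 2 lower, beside 5.26% of all genes.

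**Figure D4:**
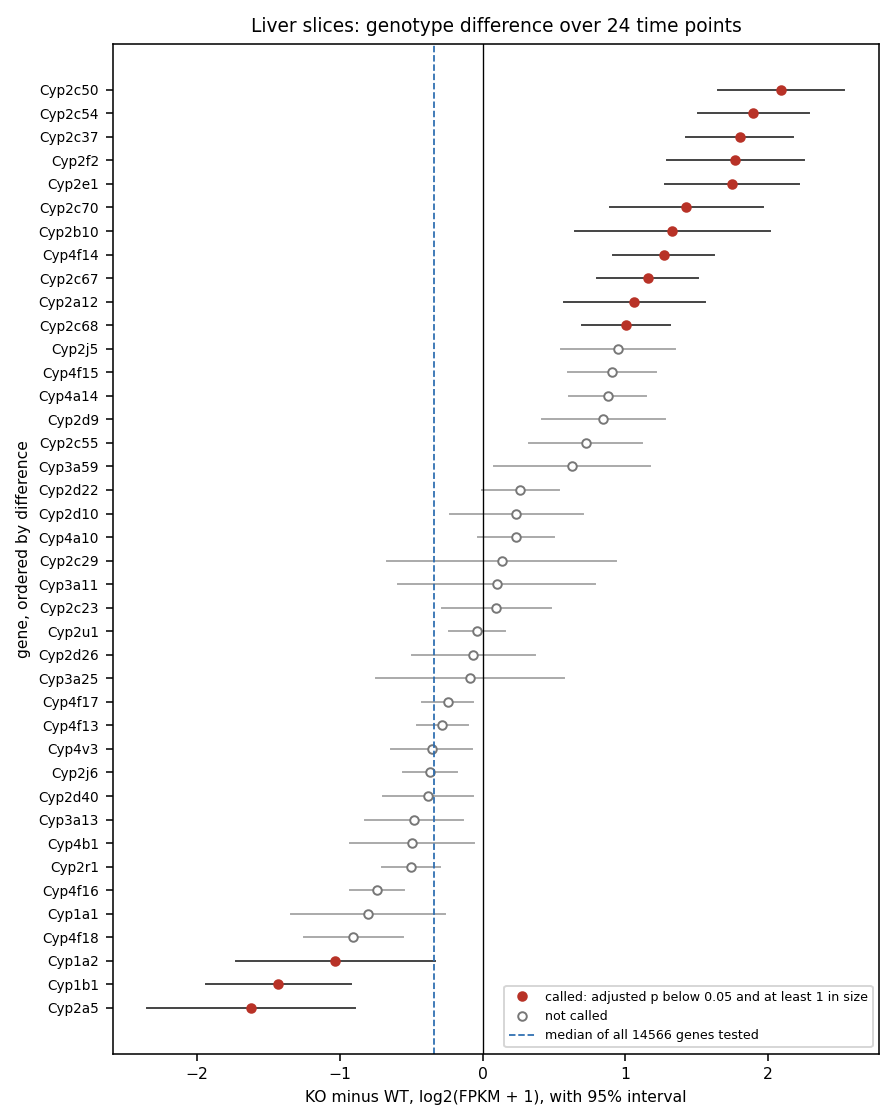
Difference between KO and WT slices over 24 time points, in log2(FPKM + 1) with 95% intervals, for the 40 members tested, ordered by size. Filled points are called, and the dashed line at −0.34 is the median of all genes; Cyp2c50 lies farthest to the right and Cyp2a5 farthest to the left.

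Markers of other cell types moved with genotype in the slices. Of 6 macrophage markers tested 5 were lower in KO, and of 7 fibroblast and stellate cell markers 4 were lower, beside 4.04% of all genes. Their summed FPKM on the third day was 164 to 1087 in WT and 71.6 to 122 in KO for macrophages, and 163 to 540 in WT and 17.1 to 78.0 in KO for fibroblasts and stellate cells. Of 8 hepatocyte markers 2 were higher in KO, beside 1.18% of all genes. Of 3 pericentral markers Lect2 was higher (1.05), while Glul (−0.95) and Oat (0.12) were not called. The part of these shifts in the P450 differences was not tested.

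Over the 69 h from CT00 to CT69, Cyp1a1 rose in both genotypes while a set of Cyp2 genes fell in both. In WT 14 of 34 members tested had a trend (limma, adjusted p below 0.05 and a fitted change of at least 1), 3 up and 11 down, beside 5.26% of all genes (2.81% up and 2.45% down). In KO it was 12 of 40, 1 up and 11 down, beside 1.94% of all genes (0.337% up and 1.6% down). The member that rose in both was Cyp1a1. In WT Cyp1b1 and Cyp4f18 (1.76) rose as well. Those that fell in both were Cyp2e1, Cyp2f2, Cyp2c54 (−1.89 in WT and −2.26 in KO), Cyp2c23 (−2.09 and −1.97), Cyp4f14 (−1.49 and −2.08), Cyp2d26, Cyp2d9 and Cyp2j5. Cyp2d40 (−2.07), Cyp2c50 and Cyp2c37 were called in WT, and Cyp2c70 (−1.94), Cyp2c68 and Cyp4f15 in KO.

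Cyp1a1, the most inducible target of the aryl hydrocarbon receptor, averaged 12.2 ± 9.49, 39.2 ± 13.9 and 48.9 ± 18.8 FPKM on days 1 to 3 in WT (SD, n = 8 consecutive libraries a day). In KO it averaged 9.74 ± 5.27, 12.95 ± 12.2 and 38.5 ± 12.9 FPKM. It rose by 2.67 ± 0.63 in WT (limma, adjusted p = 0.00486) and by 2.86 ± 0.69 in KO (adjusted p = 0.0188). Its neighbour Cyp1a2, which lies beside it in the same 0.027 Mb of chromosome 9 (57676937 to 57703824), had day means of 13.6, 41.2 and 67.9 FPKM in WT and of 15.9, 14.5 and 14.6 FPKM in KO. Neither trend of Cyp1a2 was called (2.41 ± 0.92 in WT, limma, adjusted p = 0.0666, and −0.23 ± 0.66 in KO). The WT trend of Cyp1a2 was called without WT CT36 (2.44), without day 2 (2.67), as day 3 minus day 1 (2.15) and without the least correlated libraries (2.87), with adjusted p from 0.0225 to 0.0476 in limma. Cyp1b1 had day means of 2.72, 3.18 and 8.13 FPKM in WT, where it rose (1.80 ± 0.43), and of 1.07, 2.55 and 0.591 FPKM in KO, where it was not called (−0.12 ± 0.57).

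The promoters of these 3 genes are shown because the genes respond to the same receptor and differed in their slice values. Each is the 250 bases before the RefSeq start (GRCm38.p6), read 5′ to 3′ on the gene's strand, at chr9:57697363-57697612 (plus), chr9:57683656-57683905 (minus) and chr17:79715062-79715311 (minus). Capitals mark GCGTG, the core to which the aryl hydrocarbon receptor binds, on either strand, so that CACGC is the same core on the other strand.
Cyp1a1: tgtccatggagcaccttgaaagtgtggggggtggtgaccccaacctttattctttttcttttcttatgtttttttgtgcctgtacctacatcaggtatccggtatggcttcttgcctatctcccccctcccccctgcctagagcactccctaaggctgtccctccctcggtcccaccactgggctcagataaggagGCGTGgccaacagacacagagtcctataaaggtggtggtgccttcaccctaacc
Cyp1a2: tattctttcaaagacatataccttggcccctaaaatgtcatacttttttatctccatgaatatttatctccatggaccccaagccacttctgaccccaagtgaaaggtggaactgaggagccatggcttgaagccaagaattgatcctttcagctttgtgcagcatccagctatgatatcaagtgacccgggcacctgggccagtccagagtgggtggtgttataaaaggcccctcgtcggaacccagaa
Cyp1b1: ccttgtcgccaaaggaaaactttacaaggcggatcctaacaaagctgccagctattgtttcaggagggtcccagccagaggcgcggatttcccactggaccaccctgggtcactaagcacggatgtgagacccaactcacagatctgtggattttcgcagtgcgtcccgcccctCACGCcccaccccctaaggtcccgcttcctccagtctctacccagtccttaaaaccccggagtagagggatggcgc
The core stands 54 bases before the start of Cyp1a1 and 76 before that of Cyp1b1, and these letters are not in the window of Cyp1a2. GCGTG stood in 28.2% of 32851 windows and in 8 of the 39 members with a window, among them Cyp2b10. Known distant enhancers of Cyp1a1 lie outside this window.

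Cyp2e1 had the steepest fall in WT, from day means of 57.9 ± 32.7 to 33.3 ± 32.2 and 12.8 ± 5.39 FPKM (−2.98 ± 0.46, limma, adjusted p = 0.000277). In KO its day means were 165 ± 164, 137 ± 70.9 and 52.4 ± 34.1 FPKM (−2.33 ± 0.65). Cyp2f2 went from 29.6 to 19.7 and 9.12 FPKM in WT (−2.37) and from 134 to 79.3 and 33.01 FPKM in KO (−2.74). Cyp2c50 went from 7.74 to 5.20 and 1.76 FPKM in WT (−2.26) and from 42.04 to 25.8 and 13.3 FPKM in KO, where its trend was not called (−2.15, limma, adjusted p = 0.0502).

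The genotypes' trends were not shown to differ. None of the 40 members was called for a difference of trends by limma, beside 0.0687% of all genes (0.0412% with a lower KO trend), and 4 (10%) had an unadjusted p below 0.05, beside 9.61% of all genes. Without the third day no member's trend was called, beside 0.0137% of all genes in WT and 0% in KO. Without the first day none was called in KO, beside 0.00705% of all genes. Without KO CT09 the KO calls went from 12 to 5, beside 1.87% of all genes. Cyp2e1 (−1.98) and Cyp2c23 (−1.61) were among those lost. Beside the WT trends, 6 of 6 macrophage and 4 of 8 fibroblast and stellate cell markers tested rose. In KO it was 0 of 5 and 0 of 7. Of all genes, 2.81% rose in WT and 0.337% in KO. The difference of trends itself was called for 0 of 6 macrophage and 0 of 7 fibroblast and stellate cell markers. The part of these markers in the P450 trends was not tested.

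Few members were called for a cycle of 24 h in the slices, and the WT count depended on the library WT CT36. In WT 0 of 34 members passed limma's test of a 24 h cosine fitted with a linear trend, beside 1.98% of all genes, and 14 (41.2%) had an unadjusted p below 0.05, beside 19.5% of all genes. Cyp2d22 came nearest, with an amplitude of 0.47 (limma, adjusted p = 0.0613). Without WT CT36, 7 members were called, beside 4.32% of all genes, among them Cyp2b10 (amplitude 0.92, adjusted p = 0.0273), Cyp2d22 (0.47) and Cyp4v3 (0.44). In KO 1 of 40 passed, beside 11.2% of all genes, and 5 (12.5%) had an unadjusted p below 0.05, beside 29.3% of all genes. The 1 call was Cyp4f13, with an amplitude of 0.41 ± 0.10 and a peak at 2.83 h (limma, adjusted p = 0.0302). It was lost with no filter (adjusted p = 0.0611), without day 2 or day 3 (0.323 each) and without the least correlated libraries (0.103).

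Fibroblasts, a contrast without hepatocytes, expressed a different set. Of the 10 members at 1 FPKM or more, Cyp1b1 led, ranging from 22.1 through a median of 28.7 to 42.8 FPKM in 24 WT libraries and from 52.1 through 55.9 to 63.5 FPKM in 24 KO libraries. The ranges did not overlap, but the difference of 0.92 ± 0.05 was under the size limit of 1, and it lay opposite in sign to that in slices. Called were 2 of 10, both higher in KO, beside 16% of all genes (6.21% higher and 9.82% lower): Cyp2f2, from 2.47 through 4.73 to 7.52 FPKM in WT and from 13.5 through 16.6 to 19.5 FPKM in KO (1.65 ± 0.07), and Cyp4f13, from 3.04 to 5.63 FPKM in WT and from 7.72 to 14.1 FPKM in KO (1.05). Cyp4f17 was 3.31 to 5.07 FPKM in WT and 7.63 to 9.71 FPKM in KO (0.91), also without overlap. Cyp2u1 was lower in KO by less than the limit (−0.80). The vitamin D 25-hydroxylase Cyp2r1 (−0.44), Cyp2d22 (−0.19), Cyp2j6 (−0.06), Cyp4f16 (0.03) and Cyp4v3 (0.03) differed by less still. The summed FPKM of 7 hepatocyte genes was 0.232 to 1.36 in WT and 94.98 to 121 in KO fibroblasts, of which Trf (0.0759 and 105 FPKM) made most; its part in these differences was not tested.

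Genes that act with or upstream of the P450s were read from lists of known genes. In the short course 7 of 14 regulators were lower in KO and none higher, beside 9.42% and 6.29% of all genes. Dbp, a direct clock target, was 33.3 FPKM in WT and 1.01 FPKM in KO (−3.75), and Ppara (−1.42), Tef (−1.04) and the PXR gene Nr1i2 (−0.93) were lower too, while the CAR gene Nr1i3 was not called (−0.48). In the slices 3 of 14 were lower, beside 4.04% of all genes: Dbp (−1.64), Hnf4a (−1.27) and Ppara (−1.10). Of 6 genes for redox partners and heme, 3 were lower in KO in the short course, beside 9.42% of all genes. Alas1, the first enzyme of heme synthesis, had 204 FPKM in WT and 73.5 FPKM in KO (−1.65). The reductase Por had 173 and 71.5 FPKM (−1.29), and Cyb5a was lower by less (−0.50). In the slices 0 of 6 passed the size limit, with Alas1 at −0.92 and Por at −0.81, beside 5.22% of all genes called.

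Some genes of the target lists of the xenobiotic receptors, which include members, were called by genotype. Of 9 CAR and PXR targets tested in the short course 3 were higher and 1 lower in KO, beside 6.29% and 9.42% of all genes. In the slices 1 of 9 was higher, beside 1.18% of all genes. Of the targets of the aryl hydrocarbon receptor 1 of 3 was higher in the short course (Nqo1, 0.45), beside the same 6.29%. In the slices 2 of 5 were lower, beside 4.04% of all genes. Of PPARα targets 0 of 6 were called in the slices, beside 5.22% of all genes. Cyp4a10 at T00 was 3.38, 26.6 and 29.8 FPKM in WT and 9.20, 26.1 and 10.3 FPKM in KO, which overlapped, and Cyp4a14 was 0.837, 8.16 and 7.85 FPKM in WT and 1.74, 56.2 and 27.8 FPKM in KO. Over the 24 h of the short course the receptor genes fell in both genotypes, Nr1i3 (−2.17 in WT and −3.54 in KO) and Nr1i2 (−1.47 and −2.73). Of the 6 redox and heme genes 3 fell in WT and 4 in KO, Alas1 among them (−1.56 and −2.77). Por (0.99 and 1.09) and the heme oxygenase Hmox1 (5.86 and 7.59) rose in both. Over all genes, 66.2% in WT and 66.5% in KO changed in either direction.

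P450s known to be sex-biased were followed as well. Of the female-biased list 2 of 10 were tested in the short course and 1 was higher in KO, beside 6.29% of all genes. Of the male-biased list 1 of 5 was lower, beside 9.42%. The Y-linked Ddx3y was at least 12.3 FPKM in every library and Xist at most 0.129 FPKM in the short course, 0.785 FPKM in the slices and 2.16 FPKM in fibroblasts. Of 9 P450s outside families 1 to 4, 2 were higher in KO in the short course, beside 6.29% of all genes. In the slices the bile acid 12-hydroxylase Cyp8b1 was higher (1.47), beside 1.18% of all genes. Cyp21a1 (−1.61) and Cyp51 (−1.06) were lower there, beside 4.04%. Cyp4a12a, outside the naming rule, was 53.5 ± 35.2 FPKM in WT and 21.9 ± 21.6 FPKM in KO of the short course (SD, n = 12 each).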

How the data were processed

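Messenger RNA was sequenced as single 50-base reads, per the labels' protocols. TopHat2 2.1.0, Cuffdiff and the build GRCm38 are named in the submitters' processing notes, without their roles as used here. The authors deposited FPKM values per gene, with the 3 or 2 runs of a library in 1 column. Genes were matched to symbols by Ensembl ID (47217 of 47631 in the short course). Each fit used log2(FPKM + 1), genes whose mean over its libraries reached 1 FPKM, limma 3.58.1 (R 4.3.3) with a mean-dependent prior, and Benjamini-Hochberg adjustment over all genes, and a fold is on that scale. Slice and fibroblast calls also needed a change of 1. In fibroblasts 118 genes with a failed status were left out.

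Depth is unknown, and the number of libraries limits the precision. The members and lists were chosen with earlier results of these data known. Named genes were, by rule, the most abundant of each subfamily, up to 5 called per direction and test, the inducible members, and members in fibroblasts. Groups came from titles, including 1 short-course run whose title and time label differ. Alternatives were pseudocount, filter, size limit, rescaling, left-out days, libraries and replicates, and the replicate block. Replicate numbers of WT and KO did not pair: deviations from group means correlated between −0.113 and 0.0893 over 12 same-numbered pairs. Between times within a genotype, 2 of 18 WT pairs and 4 of 18 KO pairs exceeded 0.1 (highest 0.216). The numbers were therefore not taken as pairs there either. These correlations run over all tested genes and do not show that same-numbered libraries were independent. WT number 1 had the lowest summed P450 level at every time (6805, 3562, 3890 and 3154 FPKM), and no KO number did. The scripts were tested on simulated data. The values of 1 listed gene are not reported here.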

Additional observations from a re-analysis of the deposited data

Results flagged for a closer look

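Cyp4f17 in the short liver course was singled out because the genotypes' courses differed in a test of the difference itself: it rose in WT and fell in KO, and the KO change from T00 to T24 minus the WT change was −2.44 on the log2 scale (limma interaction over all times, adjusted p = 0.0031, 3 libraries per group and time).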

How the results depend on the processing

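Counts of members called were compared with the main ones under each alternative. In the slices, 31 of 40 members differed by genotype with no size limit, beside 71.9% of all genes. WT trends numbered 9 without day 1 and 0 without day 3, beside 7.36% and 0.0137% of all genes. KO trends numbered 2 with no filter (0.447% of all genes), 0 without day 1 (0.00705%), 5 without day 2 (1.8%) and 0 without day 3 (0%). They numbered 1 for day 3 minus day 1 (0.246%) and 5 without KO CT09 (1.87%). WT rhythms numbered 7 without WT CT36, beside 4.32% of all genes. KO rhythms numbered 0 with no filter (2.27% of all genes), without day 2 (0%), without day 3 (0%) or without the least correlated libraries (0.184%). They numbered 3 without day 1 (19.3%) and 2 without KO CT09 (14.6%). In fibroblasts 4 of 10 were called with a pseudocount of 0.1 and 8 with no size limit, beside 20.4% and 80.8% of all genes. In the short course, leaving out each replicate gave 8 to 17 genotype calls, beside 8.62% to 15.1% of all genes. It gave 18 to 27 WT time calls (39.7% to 50.8%), 15 to 40 KO time calls (28.6% to 56.7%) and 0 to 3 interactions (0.184% to 3.43%). A 3 against 3 comparison of means gave 3 genotype calls (4.46%), and 6 interactions were called without the KO library of replicate 2 at T12 (8.11%). Genotype calls numbered 17 without that library and 18 without KO replicate 2 at T24 (17.2% and 15.3%). The replicate block, although the numbers did not pair the samples, gave 15 genotype calls (16% of all genes). It gave 34 WT and 42 KO time calls (67.5% and 66.2%) and 2 interactions (2.93%). For single genes, 2186 values kept their call status, 85 lost and 52 gained a call, and 1 reversed. That was Cyp2b10 in KO at T24 (−0.72 to 0.81 as each KO replicate was left out). A change of sign counted as reversed only where the gene was called in 1 or both fits, so uncalled values may have changed direction. Apart from settings that leave out libraries or genes, the cause was not tested. The omitted-library settings (WT CT36, KO CT09, KO replicate 2 at T12 and T24) and the estimates at each time were chosen after seeing the data.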
